A study of Mus musculus with 24 samples.

Results

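Transcripts of 9 enzymes that make serine and glycine and carry single carbons on folate were followed in cultured primary osteoblasts (OBs), out of 55335 genes counted in each of 24 libraries. The genes are *Phgdh*, *Psat1*, *Psph*, *Shmt1*, *Shmt2*, *Mthfd1*, *Mthfd1l*, *Mthfd2* and *Aldh1l2*. They were chosen by name for their place in this pathway, with earlier results of these data known. All 9 had a single entry in the files and passed the filter on low counts in every comparison. The OBs came from parietal bones of pups aged 4–5 days on the C57BL/6J background. The pups were wild type (WT) or heterozygous (Het) for the Col1a2tm1Mcbr allele, which puts cysteine in place of a glycine in the triple helix of the procollagen α2(I) chain. All cultures underwent osteogenic differentiation in a medium with ascorbic acid 2-phosphate, and polyadenylated RNA was sequenced from cells grown for 8, 14 or 21 days after they were seeded. Each genotype has 4 libraries at each of these days. Cells of several pups of a genotype were pooled before plating, so the wells of a preparation are not separate animals. The p-values below measure the spread between libraries, which may be technical. In the main tests this spread also holds the gap between the libraries numbered replicate 1 and the others. The cultures are not pure OBs, and every cell of a Het culture carries the allele whether or not it makes type I collagen. Reads counted per gene cannot show the substitution, so the counts offer no direct check of the genotype labels.

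Serine is made from a glycolytic intermediate, 3-phosphoglycerate, by phosphoglycerate dehydrogenase (*Phgdh*), phosphoserine aminotransferase (*Psat1*) and phosphoserine phosphatase (*Psph*). Serine hydroxymethyltransferases, in the cytosol (*Shmt1*) and in mitochondria (*Shmt2*), then split serine into glycine and a carbon unit held by tetrahydrofolate. In mitochondria *Mthfd2*, *Mthfd1l* and *Aldh1l2* oxidise and release that unit as formate or carbon dioxide, and *Mthfd1* takes formate up again in the cytosol for purine and thymidylate synthesis. Glycine is needed in large amounts for collagen, and several of these genes are known targets of ATF4, the transcription factor of the integrated stress response.

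The libraries held 17140202 to 59734231 counts, with a median of 48340136. Expression is given as relative quantity (RQ), a gene's count over that library's geometric mean of the housekeeping genes *Sdha*, *Mrfap1*, *Actb* and *Actg1*. The lowest count of any of the 9 genes was 71, for *Shmt1*, and the highest was 13467, for *Aldh1l2*. Replicate 1 stood apart from replicates 2 to 4 in several of these genes, and its libraries were shallower, with at most 25825762 counts against at least 28159342. The study describes experiments with different litters, plating densities and oxygen during expansion, but the labels do not say which library belongs to which. They also list more libraries per genotype and day than its methods describe wells. All labelled libraries were used, and results are also given without replicate 1. All 8 OB markers, with *Col1a1*, *Runx2*, *Sp7*, *Ibsp* and *Bglap* among them, were detected in every group, and the median of their summed RQ went in WT from 78.0 at day 8 to 320.0 at day 21 and in Het from 61.7 to 264.0.

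The genes lie at these places in GRCm38, in the annotation of GENCODE release M21. *Phgdh* is on chromosome 3 (98313170 to 98339990, minus strand) and *Psat1* on chromosome 19 (15904678 to 15947337, minus). *Psph* is on chromosome 5 (129765558 to 129787449, minus), where its exons overlap those of *Cct6a* on the other strand. *Shmt2* is on chromosome 10 (127517123 to 127522444, minus) and overlaps *Ndufa4l2*, also on the other strand, and *Mthfd2* is on chromosome 6 (83305691 to 83325908, minus). Overlaps of this kind were also found for *Shmt1* with *Smcr8*, for *Mthfd1* with the lncRNA *Gm47525* and for *Aldh1l2* with *D10Wsu102e*. Whether the strand was used in counting is not given in the sources used here, so reads in these stretches cannot be told apart. *Phgdh* has a processed pseudogene, *Phgdh-ps1*, which received 3 counts over all libraries.

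The 250 bases before the annotated start are shown for the 5 genes that were higher in Het cells at days 14 and 21, as RefSeq gives them for GRCm38.p6, 5′ to 3′ on the strand of the gene. Capitals mark CCAAT, a common promoter box, on either strand. The windows are chr3:98339970-98340219 for *Phgdh*, chr19:15925060-15925309 for the more upstream of the *Psat1* starts held, chr5:129787254-129787503 for *Psph*, chr10:127522445-127522694 for *Shmt2* and chr6:83317605-83317854 for *Mthfd2*, all on the minus strand. RefSeq and GENCODE differ on where some of these genes begin. By the GENCODE spans above, the windows of *Psat1* and *Mthfd2* lie within the gene. Those of *Phgdh* and *Psph* overlap its upstream end, and that of *Shmt2* lies just before the gene.
Phgdh: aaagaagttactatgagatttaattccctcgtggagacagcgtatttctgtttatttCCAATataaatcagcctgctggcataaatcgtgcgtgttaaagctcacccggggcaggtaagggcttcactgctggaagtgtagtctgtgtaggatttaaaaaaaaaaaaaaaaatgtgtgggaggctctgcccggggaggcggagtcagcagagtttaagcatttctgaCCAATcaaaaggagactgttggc
Psat1: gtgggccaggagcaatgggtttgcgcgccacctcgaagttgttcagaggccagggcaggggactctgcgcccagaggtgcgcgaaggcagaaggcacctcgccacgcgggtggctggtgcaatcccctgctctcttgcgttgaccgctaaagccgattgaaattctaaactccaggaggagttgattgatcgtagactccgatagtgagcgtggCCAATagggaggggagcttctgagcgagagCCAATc
Psph: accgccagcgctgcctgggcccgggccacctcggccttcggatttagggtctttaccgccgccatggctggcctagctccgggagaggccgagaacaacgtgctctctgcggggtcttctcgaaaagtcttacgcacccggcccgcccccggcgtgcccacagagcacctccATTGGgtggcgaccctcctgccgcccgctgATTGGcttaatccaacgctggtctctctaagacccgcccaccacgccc
Shmt2: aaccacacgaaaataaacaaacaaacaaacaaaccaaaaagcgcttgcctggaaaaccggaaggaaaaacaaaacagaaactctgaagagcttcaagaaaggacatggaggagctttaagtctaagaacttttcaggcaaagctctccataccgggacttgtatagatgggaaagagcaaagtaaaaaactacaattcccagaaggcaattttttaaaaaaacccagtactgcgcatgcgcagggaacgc
Mthfd2: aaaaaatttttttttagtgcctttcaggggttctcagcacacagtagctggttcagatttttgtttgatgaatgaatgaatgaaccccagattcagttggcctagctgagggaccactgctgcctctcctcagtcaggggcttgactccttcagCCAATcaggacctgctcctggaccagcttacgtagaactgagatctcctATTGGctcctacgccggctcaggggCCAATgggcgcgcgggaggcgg
The core of the C/EBP-ATF response element, TGATGNAA, and its stricter form TGATGCAA were searched on both strands, and neither was found in any of the 9 windows held for 8 of the genes. Of all 32851 mouse windows of this length, 3.45% hold TGATGNAA and 0.791% hold TGATGCAA. CCAAT, which was searched after these sequences had been seen, occurred in 6 of the 9 windows against 33.8% of all windows. *Phgdh* held it 23 and 193 bases before the start, *Psat1* at 6 and 36, *Psph* at 48 and 78, and *Mthfd2* at 22, 47 and 96. *Shmt1* held it at 47 and *Mthfd1* at 69, so the box was not confined to the 5 genes higher in Het cells. *Shmt2*, *Mthfd1l* and the other start of *Psat1* held none. The GC box GGGCGG, searched at the same time and overlapping none of these CCAAT matches, was found in 5 windows, those of *Psph*, *Shmt1*, *Mthfd1*, *Mthfd1l* and the other start of *Psat1*, against 32.7% of all windows. A match of letters is no evidence that a factor binds there.

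At days 14 and 21 together, 5 of the 9 transcripts were higher in Het than in WT cells and none was lower. These were all 3 steps of serine synthesis, the mitochondrial serine hydroxymethyltransferase *Shmt2* and the mitochondrial dehydrogenase *Mthfd2*. The test was edgeR's quasi-likelihood test with Benjamini-Hochberg adjustment over 19839 genes, with day as a covariate and no term for the replicate number. Of all genes tested, 7.26% were called higher. Since the 9 genes were chosen with earlier results of these data known, their share is not independent evidence. The median log2 difference was 0.31 over the 9 genes and −0.05 over all genes. With TMM scaling 6 of the 9 were called, and with the total count 8 were called. Over all genes 1440 were called higher and 1762 lower with the housekeeping scale, 3202 in all, while TMM gave 2561 higher and 1443 lower and the total count 3289 and 1008. In bulk samples fewer cells of a type and less RNA per cell cannot be told apart.

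*Phgdh*, the first and committed step of serine synthesis, showed the largest difference. At day 14 its RQ was 0.119, 0.127, 0.120 and 0.119 in WT replicates 1 to 4 and 0.140, 0.275, 0.189 and 0.198 in Het replicates 1 to 4. At day 21 it was 0.0615, 0.0969, 0.0888 and 0.0730 in WT and 0.110, 0.141, 0.140 and 0.145 in Het. Within each day the lowest Het value was above the highest WT value. Across both days the mean was 0.167 ± 0.052 (SD, n = 8) in Het and 0.101 ± 0.0244 (SD, n = 8) in WT. The log2 difference was 0.74 ± 0.12 (SE), or 1.66-fold (adjusted p = 0.00145).

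*Psat1*, the aminotransferase of the next step, was higher in Het in 7 of the 8 pairs with the same day and replicate number. Its RQ at day 14 was 0.222, 0.234, 0.222 and 0.218 in WT and 0.217, 0.416, 0.333 and 0.347 in Het. Het replicate 1 was thus just below all 4 WT libraries while the others were far above them. At day 21 the RQ was 0.116, 0.147, 0.137 and 0.124 in WT and 0.162, 0.208, 0.214 and 0.232 in Het, without overlap. The log2 difference over both days was 0.59 ± 0.11 (SE; adjusted p = 0.00299), from means of 0.266 ± 0.0879 (SD, n = 8) in Het and 0.178 ± 0.0507 (SD, n = 8) in WT.

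*Psph*, the phosphatase that releases free serine, was the least abundant of the 3 serine synthesis transcripts per kilobase in every group. Its RQ at day 14 was 0.0695, 0.0632, 0.0638 and 0.0646 in WT and 0.0631, 0.135, 0.0979 and 0.102 in Het. By day 21 it was 0.0512, 0.0601, 0.0552 and 0.0555 in WT and 0.0688, 0.0766, 0.0782 and 0.0829 in Het. Again the Het library of replicate 1 at day 14 lay below the WT libraries, and the groups were apart at day 21. The log2 difference was 0.54 ± 0.11 (SE; adjusted p = 0.0048).

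**Figure D1:**
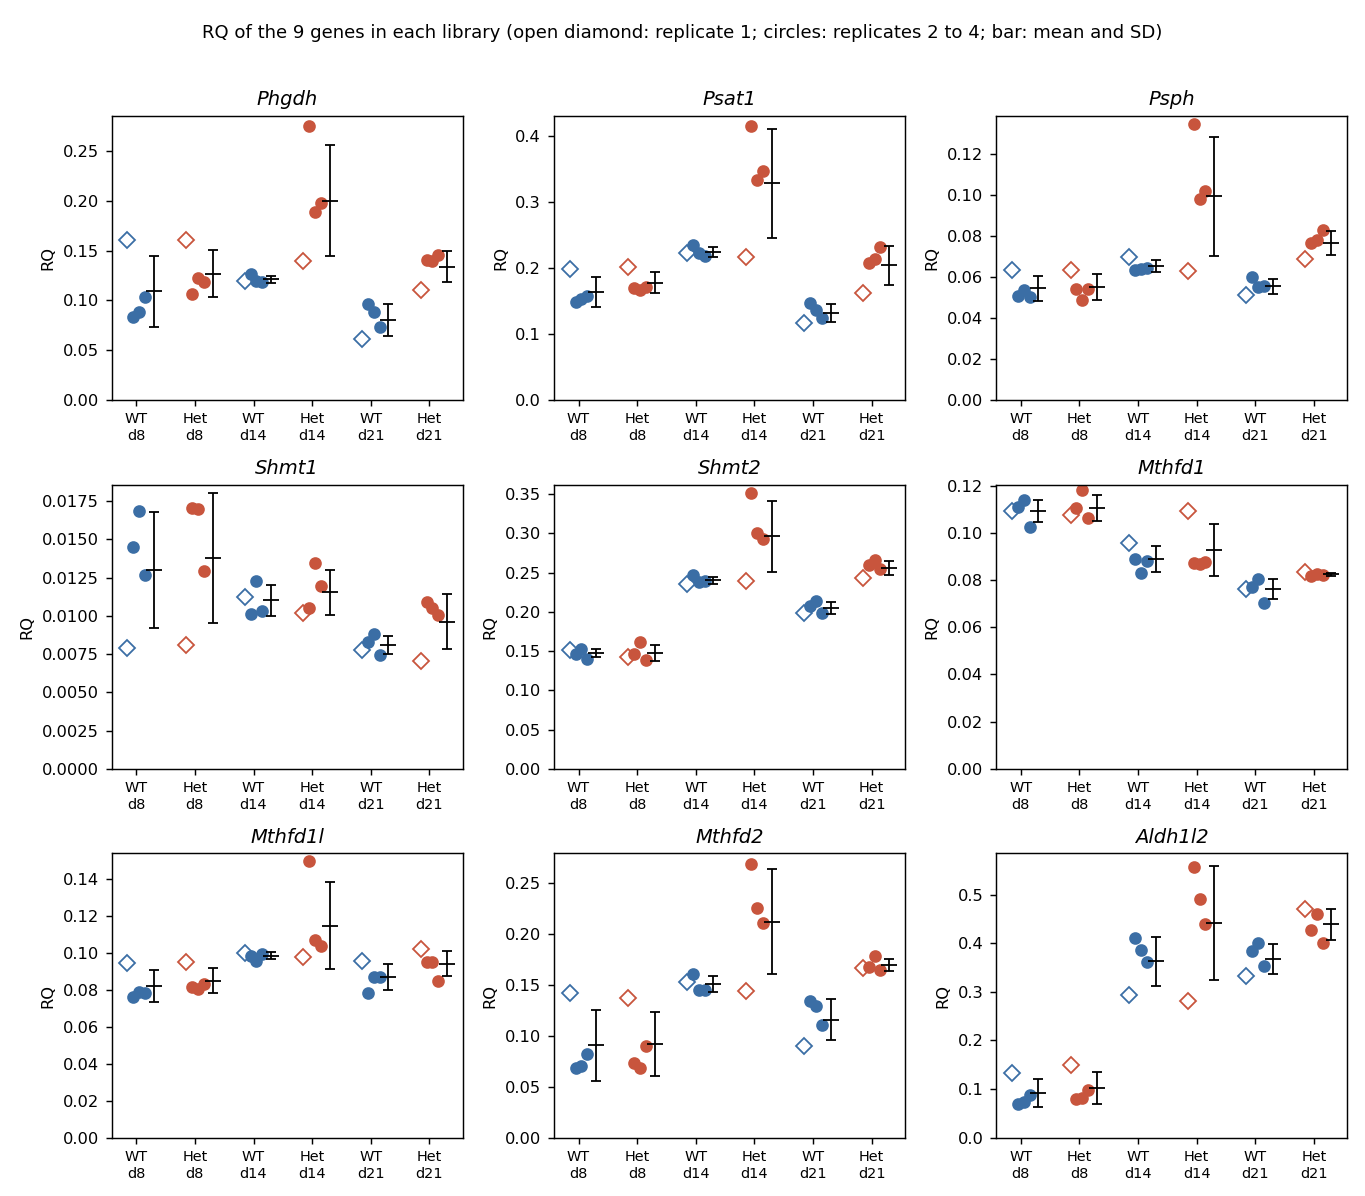
RQ (vertical axis, linear, from 0) of each of the 9 genes in every library by genotype and day, with blue for WT, red for Het, open diamonds for replicate 1, circles for replicates 2 to 4, and the mean and SD of 4 libraries as a bar. *Phgdh*, *Psat1*, *Psph*, *Shmt2* and *Mthfd2* are higher in Het replicates 2 to 4 than in all WT libraries at day 14, and the Het diamond of that day lies near the WT points. The same holds for *Mthfd1l* and *Aldh1l2*, which were not called.

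*Shmt2*, which splits serine in mitochondria, had the smallest difference of the 5 called genes. Its RQ at day 14 was 0.235, 0.247, 0.238 and 0.240 in WT and 0.240, 0.351, 0.300 and 0.293 in Het. By day 21 it was 0.198, 0.208, 0.214 and 0.199 in WT and 0.244, 0.259, 0.266 and 0.255 in Het. Every Het library was above the WT library of the same replicate number at both days, in replicate 1 at day 14 by a ratio of 1.02. The log2 difference was 0.31 ± 0.06 (SE; 1.24-fold; adjusted p = 0.00392).

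*Mthfd2*, which oxidises methylene-tetrahydrofolate in mitochondria, stood at an RQ of 0.153, 0.161, 0.145 and 0.145 in the WT libraries of day 14 and of 0.144, 0.268, 0.225 and 0.210 in the Het libraries. At day 21 the RQ was 0.0900, 0.134, 0.129 and 0.110 in WT and 0.166, 0.168, 0.178 and 0.165 in Het. The 4 Het values of day 21 lay within a narrow band above every WT value of that day. The log2 difference over both days was 0.52 ± 0.10 (SE; adjusted p = 0.00505).

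*Aldh1l2*, which releases the carbon unit as carbon dioxide in mitochondria, was not called. Its RQ at day 14 was 0.293, 0.411, 0.387 and 0.361 in WT and 0.282, 0.557, 0.491 and 0.440 in Het. By day 21 it was 0.332, 0.384, 0.401 and 0.353 in WT and 0.471, 0.427, 0.460 and 0.401 in Het. Het was higher in 7 of 8 pairs with the same day and replicate number, and the log2 difference was 0.27 ± 0.11 (SE; adjusted p = 0.101). It was called with the replicate number as a block (0.27, adjusted p = 0.0404) and without replicate 1 (0.27, adjusted p = 0.00603).

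The remaining members were the mitochondrial formate-releasing ligase *Mthfd1l* and the cytosolic enzymes *Shmt1* and *Mthfd1*. Their log2 differences at days 14 and 21 were 0.17 ± 0.08 for *Mthfd1l* (adjusted p = 0.14), 0.16 ± 0.10 for *Shmt1* (adjusted p = 0.257) and 0.09 ± 0.05 for *Mthfd1* (adjusted p = 0.26), each with its SE. *Mthfd1l* was called with TMM factors (0.23, adjusted p = 0.043), the total count or the size factors of DESeq2, *Mthfd1* with the total count (0.18, adjusted p = 0.0311), and *Shmt1* without replicate 1 (0.25, adjusted p = 0.0344). A p above the threshold does not show that these transcripts were equal in both genotypes.

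The calls at days 14 and 21 depended on which replicate was left out. Without replicate 2, 3 or 4 the counts of called members were 4, 1 and 0, beside 328, 258 and 139 calls over all genes. Without replicate 1, 7 members were called, beside 7582 of 19263 genes. The log2 differences of the 5 called genes stayed positive in each of these fits. Leaving out any single library gave 5 or 6 calls of members, for which no count over all genes is given. Within replicate 1 alone, 1 library per genotype and day and no test, the ratio of mean RQ was 1.39 for *Phgdh*, 1.12 for *Psat1*, 1.09 for *Psph*, 1.12 for *Shmt2* and 1.28 for *Mthfd2*. Within replicates 2 to 4 it was 1.74, 1.62, 1.58, 1.28 and 1.47.

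Over both days the Het and WT libraries overlapped for each of the 9 genes, while 0.484% of the genes that averaged 50 counts or more had all 8 Het libraries above all 8 WT libraries. At day 14 only *Phgdh* among the 9 had Het above WT without overlap, against 2.35% of those genes. At day 21 the count was 6, *Phgdh*, *Psat1*, *Psph*, *Shmt2*, *Mthfd1* and *Mthfd2*, against 8.86%.

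The study judged single markers by a ratio of mean RQ above 1.2 or below 0.8 with an unadjusted p under 0.05. With a two-sided exact permutation test over the 8 and 8 libraries of days 14 and 21 in place of its own test, this rule was met by the 5 called genes and by *Aldh1l2* (ratio 1.21, p = 0.0303). Libraries were regrouped freely across day and replicate number, so the p of this test takes no account of either. The p was 0.000777 for *Phgdh* and for *Shmt2*, 0.00124 for *Mthfd2*, 0.0014 for *Psph* and 0.0255 for *Psat1*, and Het was higher in 8, 8, 7, 7 and 7 of the 8 pairs with the same day and replicate number, in that order.

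Tested by day with a shared estimate of spread, *Phgdh* (log2 difference 0.73 ± 0.17 SE, adjusted p = 0.0377) and *Psph* (0.61 ± 0.15 SE, adjusted p = 0.0448) were called at day 14, where 1.5% of genes were called higher. *Psat1* (0.55), *Shmt2* (0.30) and *Mthfd2* (0.49) had adjusted p = 0.0639, 0.0664 and 0.0799. With the replicate number as a block all 5 were called at day 14. At day 21, where 0.439% of genes were called higher, none of the 9 was called by edgeR, although 5 had an unadjusted p under 0.05, and DESeq2's Wald test called 4. The log2 differences at day 21 were 0.74 for *Phgdh* (adjusted p = 0.062), 0.64 for *Psat1* (0.0744), 0.55 for *Mthfd2* (0.114), 0.47 for *Psph* (0.162) and 0.32 for *Shmt2* (0.102). With the replicate block 4 were called, *Phgdh*, *Psat1*, *Shmt2* and *Mthfd2*. The calls of single days followed the libraries closely. Without the Het library of replicate 1, 6 members were called at day 14 (2 with all libraries) and 3 at day 21 (0 with all libraries). Calls over all genes are not given for single left-out libraries, so these counts have no background beside them. Without replicate 1 in both genotypes, calls over all genes went from 572 to 5174 at day 14 and from 131 to 4316 at day 21. Without WT replicate 2, 3 or 4 or Het replicate 2 or 4 none was called at day 14, and without Het replicate 3 the count was 1.

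**Figure D2:**
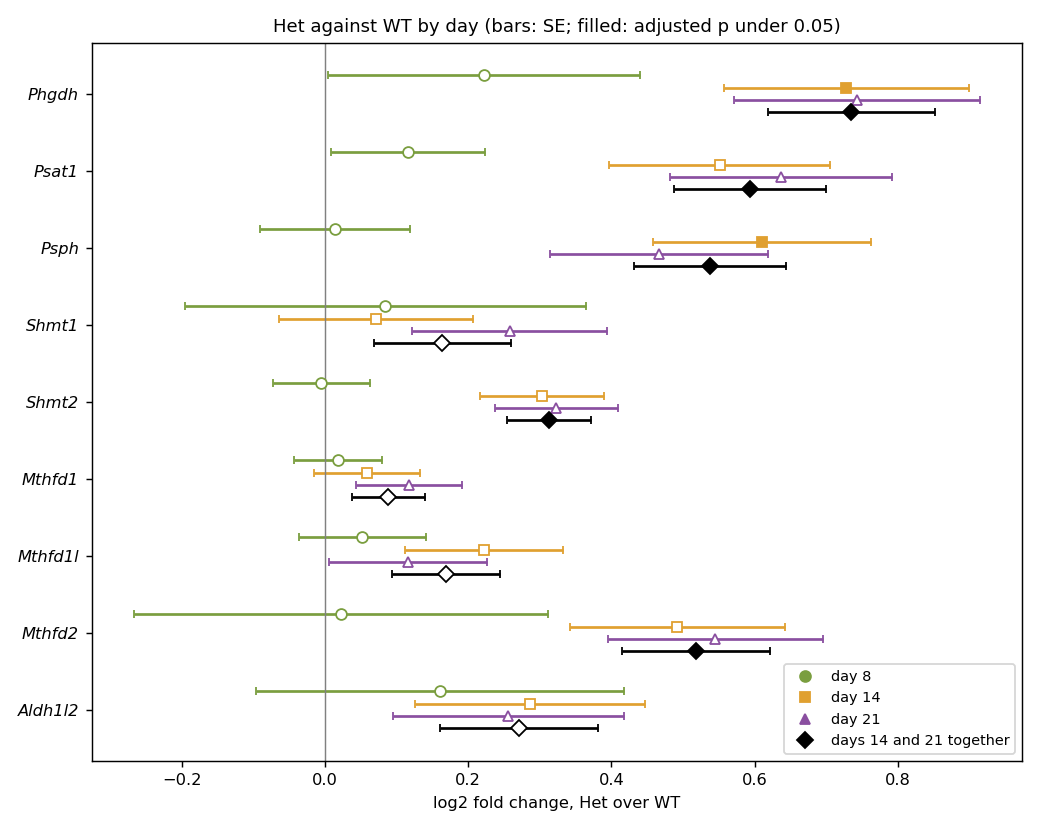
Log2 fold change of Het over WT (horizontal axis) for each gene at day 8, day 14, day 21 and days 14 and 21 together, with the SE as a bar and filled symbols for an adjusted p under 0.05. The black diamonds of *Phgdh*, *Psat1*, *Psph*, *Shmt2* and *Mthfd2* are filled, and their day 14 and day 21 symbols lie close together and to the right of those of day 8.

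No change of the difference was detected between the late days. The difference between the Het effects at days 21 and 14 ranged from −0.14 (*Psph*) to 0.19 (*Shmt1*) on the log2 scale, with SEs of 0.105 to 0.241. None of the 9 passed, and 0% of all genes did by edgeR (473 had an unadjusted p under 0.05, and DESeq2's Wald test called 1).

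At day 8 the 9 transcripts had log2 differences between −0.01 (*Shmt2*) and 0.22 (*Phgdh*), and none was called by edgeR or by DESeq2's Wald test, with no unadjusted p under 0.05. Of all genes 0% were called by edgeR, with 1817 of 18222 at an unadjusted p under 0.05, and DESeq2's Wald test called 431. The RQ of *Phgdh* was 0.161, 0.0835, 0.0887 and 0.103 in WT replicates 1 to 4 and 0.161, 0.106, 0.122 and 0.119 in Het. The replicate 1 values were alike in both genotypes and above the others, and in replicates 2 to 4 every Het value was above every WT value. Without replicate 1, *Phgdh* was called at day 8 (log2 difference 0.33, adjusted p = 0.0253), as were 3432 of 18347 genes.

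The same stand of replicate 1 at day 8 was seen in other members. In replicate 1 the RQ of *Mthfd2* was 0.142 in WT and 0.137 in Het, against 0.0688 to 0.0819 and 0.0683 to 0.0895 in replicates 2 to 4. *Aldh1l2* had 0.133 and 0.149 against 0.0703 to 0.0884 and 0.0801 to 0.0989. *Shmt1* went the other way, with 0.00789 and 0.00811 in replicate 1 against at least 0.0127 in the other libraries of that day. *Shmt2* and *Mthfd1* did not show this split, with RQs of 0.138 to 0.161 and 0.103 to 0.118 over all 8 libraries of day 8.

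**Figure D3:**
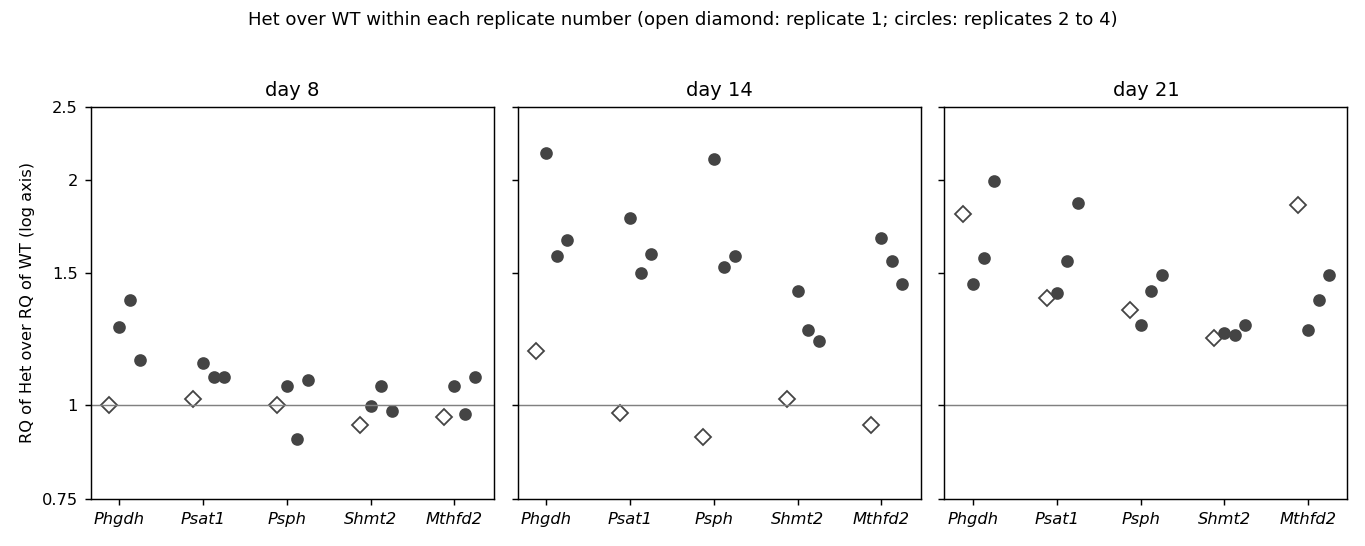
RQ of the Het library over that of the WT library with the same replicate number (vertical log axis) for the 5 genes called at days 14 and 21, in panels for day 8, 14 and 21, with an open diamond for replicate 1 and circles for replicates 2 to 4. At day 14 the diamonds lie between 0.908 and 1.18 and the circles between 1.22 and 2.17, and at day 21 every point lies above 1.

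Whether the Het effect itself changed with time was tested as the difference between the effect at days 14 and 21 and that at day 8. It was positive for all 9 genes, and none passed the adjusted threshold, where 0.171% of 20434 genes did. For *Shmt2* it was 0.32 ± 0.10 (SE; adjusted p = 0.419), for *Psph* 0.52 ± 0.17 (0.505), for *Psat1* 0.48 ± 0.18 (0.606), for *Phgdh* 0.51 ± 0.24 (0.884) and for *Mthfd2* 0.50 ± 0.27 (0.988), the first 4 of them with an unadjusted p under 0.05. DESeq2's Wald test called none of the 9 either. Without replicate 1, where 928 of 19656 genes were called, 4 of the 9 were, *Psat1* (0.54, adjusted p = 0.0029), *Psph* (0.62, adjusted p = 0.00337), *Shmt2* (0.33, adjusted p = 0.0302) and *Mthfd2* (0.48, adjusted p = 0.0419).

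Stress regulators were read in the same libraries for context. At days 14 and 21 all 4 were called higher in Het cells, *Atf4* by 0.26 ± 0.08 (log2 ± SE; adjusted p = 0.0289), *Atf5* by 0.69 ± 0.08 (adjusted p = 0.000141), *Ddit3*, which encodes CHOP, by 1.2 ± 0.10 (adjusted p = 3.2e-06) and *Trib3*, a target of both, by 2.78 ± 0.15 (adjusted p = 3.27e-08). They were picked because earlier results of these libraries were known, so their direction is not independent evidence. In the Het library of replicate 1 at day 14, in which *Psat1*, *Psph* and *Mthfd2* were at or below WT levels, *Trib3* had an RQ of 0.0976 against 0.0234 to 0.0269 in WT of that day. *Atf5* had 0.397 there against 0.248 to 0.299, and *Ddit3* 0.0582 against 0.0361 to 0.0428. *Atf4* had 0.578 there, within the 0.545 to 0.621 of WT. The other Het libraries of that day had *Trib3* at 0.179 to 0.251, *Ddit3* at 0.0924 to 0.109 and *Atf4* at 0.697 to 0.860. At day 21 *Atf4* was 0.6495 in Het replicate 2, within the 0.563 to 0.660 of WT, and 0.671 to 0.823 in the other Het libraries. In that replicate 2 library *Phgdh*, *Psat1*, *Psph*, *Shmt2* and *Mthfd2* were above every WT value of day 21. Whether these genes follow *Atf4* was not tested.

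In 4 lists of other genes of serine, glycine, folate and purine metabolism, 2 purine genes were called between the genotypes at days 14 and 21. Of all 19839 genes tested, 3202 were called in either direction and 6264 had an unadjusted p under 0.05, so 2 calls over these lists do not stand out. Of 8 tested mitochondrial folate and glycine cleavage genes none was called, with log2 differences of −0.27 to 0.13 and an unadjusted p under 0.05 for 3. They included the mitochondrial serine carrier *Sfxn1* (0.13, adjusted p = 0.113) and the folate carrier *Slc25a32* (−0.19, adjusted p = 0.129). Of 12 genes of the cytosolic folate and methionine cycle none was called, from −0.09 to 0.15, and of 7 tested genes that use serine or glycine none was called, from −0.40 to 0.27, with an unadjusted p under 0.05 for 0 and 2 of them. Of 6 genes of purine ring synthesis 2 were called higher, *Adsl* (0.17 ± 0.05 SE, adjusted p = 0.0273) and *Atic* (0.18 ± 0.04 SE, adjusted p = 0.0141), the latter being the enzyme that takes the last formyl group of the ring from folate. The medians of the 4 lists were −0.02, 0.01, 0.06 and 0.04, in the order given, beside −0.05 for all genes.

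Some markers of other cells differed between the genotypes along with these genes. The summed RQ of 6 macrophage and leukocyte markers was 2.5 to 15.3 in Het and 1.14 to 5.81 in WT libraries of days 14 and 21, with no marker at 0. In this and the following sums the most abundant transcripts of a list weigh most, so a sum does not show that every marker changed. The sum of 8 OB markers was 202.0 to 284.0 in Het and 314.0 to 340.0 in WT at day 21, without overlap, and 170.0 to 233.0 and 183.0 to 330.0 at day 14. That of 3 chondrocyte markers had a median of 1.56 in Het and 5.85 in WT over both days. In replicates 2 to 4 it was 1.1 to 2.35 in Het and 3.19 to 11.8 in WT, without overlap, while in replicate 1 it was 20.9 and 19.5 at day 14 and 7.46 and 7.45 at day 21. The adipocyte sum, of 3 markers, was likewise lower in Het in replicates 2 to 4 (0.0141 to 0.0209 against 0.0252 to 0.0343) and not in replicate 1 (0.0331 and 0.0543 in Het, 0.0307 and 0.0475 in WT). That of 3 endothelial markers was low but did not overlap, at 0.00307 to 0.00486 in Het and 0.0017 to 0.00302 in WT. Overlap was found for 2 smooth muscle markers (2.92 to 4.97 and 2.78 to 4.7), for the fibroblast marker *Clec3b* (9.9e-05 to 0.0017 and 0.000212 to 0.000776) and for 10 genes of dividing cells (1.06 to 1.6 and 1.09 to 1.9). In the Het library of replicate 1 at day 14, the macrophage sum was 2.5 against 5.61 to 6.13 in the other Het libraries of that day. The part of these cells in the results above was not tested.

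From day 8 to days 14 and 21 the pathway changed its make-up in both genotypes. *Aldh1l2* rose most, by 2.00 ± 0.20 on the log2 scale in WT (SE; adjusted p = 6.53e-08) and by 2.11 ± 0.20 in Het (adjusted p = 3.16e-08), or about 4.01-fold and 4.33-fold. Its RQ at day 8 was at most 0.133 in WT and 0.149 in Het, and at the later days at least 0.293 and 0.282. Both genotypes also raised *Shmt2*, by 0.59 ± 0.07 in WT and 0.91 ± 0.07 in Het (adjusted p = 6.44e-07 and 1.88e-09), and *Mthfd2*, by 0.55 ± 0.20 and 1.05 ± 0.20 (adjusted p = 0.0275 and 0.000208). With the total count as scale the rise of *Mthfd2* in WT was not called (0.26, adjusted p = 0.248). WT replicate 1 showed no steady rise of *Mthfd2*, with an RQ of 0.142 at day 8, 0.153 at day 14 and 0.0900 at day 21.

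The cytosolic enzymes fell on average over the same time, though not steadily in replicate 1. *Mthfd1*, which serves nucleotide synthesis, fell by 0.41 ± 0.06 in WT (log2 ± SE; adjusted p = 6.26e-06) and by 0.34 ± 0.06 in Het (adjusted p = 5.87e-05). *Shmt1* fell by 0.47 ± 0.18 in WT (adjusted p = 0.0376), and its change in Het was −0.39 ± 0.18 (adjusted p = 0.0833), which was called with the replicate block (−0.37, adjusted p = 0.0219). The call of *Shmt1* in WT was lost without replicate 2, 3 or 4, at −0.40, −0.37 and −0.45. In replicate 1 the RQ of *Shmt1* at days 8, 14 and 21 was 0.00789, 0.0112 and 0.00775 in WT. In Het replicate 1 it was 0.00811, 0.0102 and 0.00703, and that of *Mthfd1* was 0.1075, 0.1092 and 0.0834. Summed markers of dividing cells went from medians of 2.21 in WT and 2.48 in Het at day 8 to 1.52 and 1.51 at day 14 and 1.11 and 1.32 at day 21, and the part of this in the fall was not tested.

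Calls for serine synthesis genes over this time came in Het and not in WT, and the difference between the genotypes was itself not called. In WT none of the 3 was called, with −0.14 for *Phgdh*, 0.07 for *Psat1* and 0.15 for *Psph*. In Het *Psat1* rose by 0.54 ± 0.13 (log2 ± SE; adjusted p = 0.00142) and *Psph* by 0.67 ± 0.13 (adjusted p = 0.000166), and *Phgdh* had 0.37 ± 0.17 (adjusted p = 0.0895). *Mthfd1l* had 0.18 ± 0.09 in WT (adjusted p = 0.13) and rose by 0.29 ± 0.09 in Het (adjusted p = 0.0128), a call lost with TMM factors (0.13, adjusted p = 0.176). The test of the difference between the genotypes is the one between the Het effects at the later days and at day 8, in which none of the 9 passed with all replicates. Without replicate 1, 8 of the 9 were called in WT (5 with it) and all 9 in Het (7 with it), *Psat1* and *Psph* in WT among them, with changes of 0.19 and 0.23. In those fits 11281 of 19656 genes were called in WT and 12024 in Het.

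For these time comparisons 31.3% of genes were called higher and 13.7% lower in WT, and 33.7% higher and 11.7% lower in Het. The share depends on the scale, since the housekeeping geometric mean as CPM, that is scaled to the library total, fell from 544.2–629.2 at day 8 to 427.7–516.7 later. The median log2 change of all genes was 0.145 in WT and 0.166 in Het with the housekeeping scale and −0.159 and −0.133 with the total count. In WT the calls over all genes were 6388 higher and 2806 lower with the housekeeping scale, 4916 and 4844 with TMM, and 3475 and 7644 with the total count, and in Het 6887 and 2390, 4884 and 4733, and 3645 and 7074. Against the median of all genes, *Aldh1l2*, *Shmt2* and *Mthfd2* were above it and *Mthfd1* and *Shmt1* below it with each of these scales in both genotypes.

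**Figure D4:**
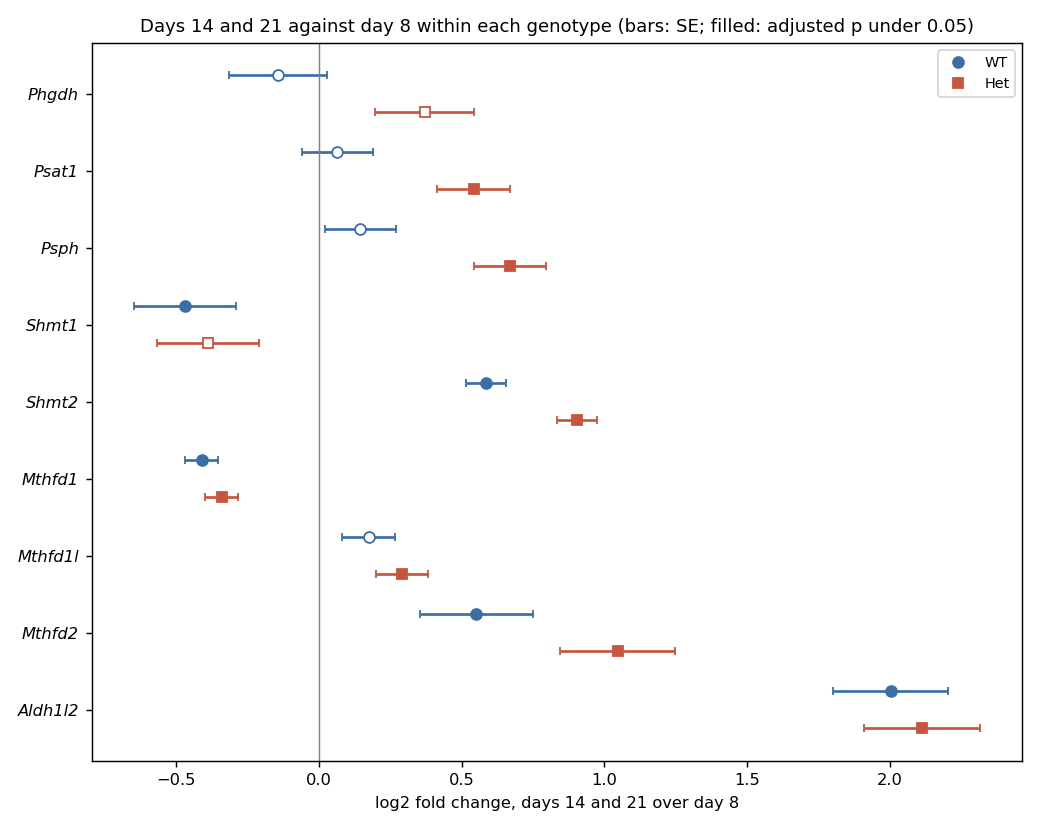
Log2 fold change of days 14 and 21 over day 8 (horizontal axis) for each gene in WT (blue circles) and Het (red squares), with the SE as a bar and filled symbols for an adjusted p under 0.05. *Aldh1l2* stands out near 2 in both genotypes, *Mthfd1* and *Shmt1* lie below 0, and *Phgdh*, *Psat1*, *Psph*, *Shmt2* and *Mthfd2* lie further to the right in Het than in WT.

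Between the late days 2 of the 3 serine synthesis genes fell in WT and 1 fell in Het. *Psat1* fell by 0.77 ± 0.16 from day 14 to day 21 in WT (log2 ± SE; adjusted p = 0.0101) and by 0.69 ± 0.16 in Het (adjusted p = 0.0216), and *Phgdh* fell by 0.60 ± 0.17 in WT (adjusted p = 0.0454). The change of *Phgdh* in Het was −0.58 ± 0.17 (adjusted p = 0.0654), called with the replicate block (−0.56, adjusted p = 0.0171). Of all genes 3.22% were called lower in WT and 0.771% in Het. Over all genes in Het 754 were called higher and 153 lower with the housekeeping scale, and 610 and 430 with TMM. In the 6 members other than *Phgdh*, *Psat1* and *Aldh1l2*, the log2 changes ran from −0.44 to −0.18 in WT and from −0.38 to −0.17 in Het, and none was called. *Aldh1l2* differed by less than its SE in both genotypes. In WT, *Shmt1* (−0.44, adjusted p = 0.0337) and *Mthfd2* (−0.40, adjusted p = 0.0497) were called with the replicate block. Without replicate 2, 3 or 4 none of the 9 was called in either genotype, and without replicate 1, 5 were called in WT and 6 in Het, beside 3149 and 3234 of 19263 genes.

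Levels were compared between genes as RQ per kilobase of the gene length in the files. In WT at day 8 the order was *Shmt2* (0.0475 ± 0.00173, SD, n = 4), *Phgdh* (0.0439 ± 0.0143), *Psat1* (0.0386 ± 0.00532), *Mthfd2*, *Mthfd1*, *Mthfd1l*, *Psph*, *Aldh1l2* and *Shmt1* (0.00335 ± 0.00098). Neighbours among the first 5 overlapped. At day 21 in WT *Shmt2* led at 0.0658 ± 0.00242 and *Aldh1l2* had moved from the eighth place to the second, at 0.0490 ± 0.00411. *Mthfd2*, *Phgdh* and *Psat1* followed at 0.0332, 0.0322 and 0.0308 and overlapped each other. In Het at day 21 *Shmt2* was at 0.0823 ± 0.003 and *Aldh1l2* at 0.0586 ± 0.00424, then came *Phgdh* at 0.0539 ± 0.00642, which overlapped *Aldh1l2*. *Shmt1* was the lowest in every group, at 0.00208 to 0.00355 on average.

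The balance between mitochondrial and cytosolic counterparts was read as the ratio of levels per kilobase within a library. *Shmt2* over *Shmt1* was 24, 12.6, 11.3 and 13.8 in WT replicates 1 to 4 at day 8 and 31.9, 31.3, 30.2 and 33.3 at day 21. In Het it was 21.9, 10.7, 11.9 and 13.3 at day 8 and 43.3, 29.7, 31.7 and 31.6 at day 21. The values of the days did not overlap in either genotype, and those of the genotypes overlapped at both days. *Mthfd2* over *Mthfd1* at day 14 was 2.03, 2.30, 2.23 and 2.10 in WT and 1.68, 3.92, 3.31 and 3.06 in Het. By day 21 it was 1.5, 2.21, 2.04 and 1.99 in WT and 2.54, 2.61, 2.75 and 2.55 in Het, which did not overlap. *Mthfd1l* over *Mthfd1* did not separate the genotypes at day 21, with 1.02 to 1.25 in WT and 1.04 to 1.22 in Het.

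**Figure D5:**
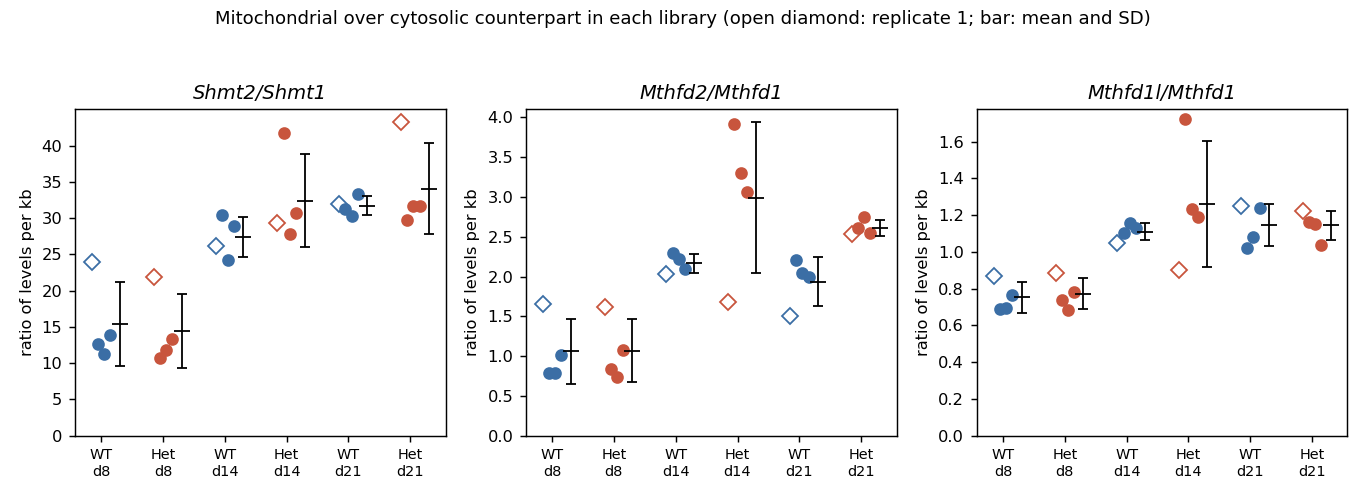
Ratio of levels per kilobase (vertical axis, linear, from 0) of *Shmt2* over *Shmt1*, *Mthfd2* over *Mthfd1* and *Mthfd1l* over *Mthfd1* in every library by genotype and day, with blue for WT, red for Het, open diamonds for replicate 1 and the mean and SD of 4 libraries as a bar. *Shmt2* over *Shmt1* is at least 24.2 in all libraries of days 14 and 21, and *Mthfd2* over *Mthfd1* is higher in all Het than in all WT libraries of day 21.

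The proportions within serine synthesis were read in the same way. *Psat1* over *Phgdh* per kilobase was 0.717 to 1.10 over all 24 libraries, and the WT libraries of day 14, at 1.07 to 1.09, were all above the Het libraries of that day, at 0.883 to 1.03. At day 21 it was 0.889 to 1.10 in WT and 0.856 to 0.931 in Het, which overlapped. *Psph* over *Phgdh* was 0.226 to 0.479.

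Likeness over the 24 libraries was measured as the root mean square difference of log2 RQ after each gene's mean was removed, over 14851 genes, and the libraries share the housekeeping denominator. For *Phgdh*, whose own SD was 0.468, the nearest gene was *Psat1* (0.173), followed by *Bcat1* (0.228), the cytosolic branched-chain aminotransferase, and *Hspa9* (0.25), the mitochondrial HSP70. For *Psat1* they were *Bcat1* (0.137), *Phgdh* (0.173) and *Psph* (0.207). For *Psph* they were the leucyl-tRNA synthetase *Lars* (0.128), *Otub2* (0.147) and the glutamine and serine transporter *Slc1a5* (0.151). For *Shmt2* they were *Hax1* (0.132), *Lrrfip2* (0.141) and *Xpot* (0.145), which exports tRNA. For *Mthfd2* they were the amino acid transporter heavy chain *Slc3a2* (0.178), the cell cycle inhibitor *Cdkn1a* (0.19) and the asparaginyl-tRNA synthetase *Nars* (0.196).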

How the data were processed

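Polyadenylated RNA of cultured primary OBs was sequenced from Illumina TruSeq libraries. Per the submitters' processing notes, reads were handled with cutadapt 2.5, STAR 2.73a and Subread featureCounts 1.6.4, on mm10. The authors deposited raw read counts per gene with gene lengths, 1 library per file and 55335 genes in each, with no normalization and no molecular identifiers, so counts include PCR duplicates. The strand rule is not given in the sources used here. Coordinates came from GENCODE release M21 (GRCm38), in which 54587 identifiers had the same version, and promoter windows from RefSeq.

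RQ was computed as count over the geometric mean of *Sdha*, *Mrfap1*, *Actb* and *Actg1*. Tests used edgeR 4.0.16 (quasi-likelihood, R 4.3.3) on the raw counts, with library sizes set to that geometric mean, low genes removed by filterByExpr and p-values adjusted over all genes by Benjamini-Hochberg at 0.05. Days 14 and 21 were fitted together with day as a covariate, day 8 alone, single late days in a fit of genotype by day, and the changes with time in all 24 libraries. Libraries of a group differed by at least 4.78 in chi-square per degree of freedom, so none was counted as a copy. Depth was 17140202 to 59734231 counts.

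Genes named beside the 9 were pathway genes called at days 14 and 21, stress regulators, and for each called member the 3 nearest genes of at least 50.0 mean counts. The members and lists were chosen with earlier results of these data known, and the CCAAT and GGGCGG searches were added later. Alternatives were TMM and DESeq2 size factors, the total count, DESeq2 1.42.0, other filters, the replicate number or replicate 1 as covariate, left-out replicates and, chosen after seeing the data, left-out single libraries.

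Same-numbered WT and Het libraries of a day deviated together from their group means in all 12 pairs (r of 0.199 to 0.712, median 0.493, across 14851 genes). The 36 pairs with unlike numbers had r of −0.668 to 0.576, with a median of −0.128 and 16 of them over 0.1. On these values the numbers were taken to pair the samples. The main tests still held no term for the replicate number and so did not use this pairing. With the replicate block, 4676 rather than 3202 genes were called at days 14 and 21. Among replicates 2 to 4, centred on their own means, the 9 same-numbered pairs had r of 0.0245 to 0.377. The 18 pairs with unlike numbers there had r of −0.307 to 0.147, so the ranges overlapped. The labels give the numbers and nothing on what they share.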

Additional observations from a re-analysis of the deposited data

Results flagged for a closer look

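Within a group of 4 libraries, a single library lay far from the other 3 in 7 of the 54 combinations of gene and group, by Dixon's ratio of the gap to the range. Chance flags about 1 in 20 groups. In replicate 1 at day 8, *Psat1* was high in WT (RQ 0.198) and in Het (0.202), and so was *Mthfd1l* in WT (0.0947) and in Het (0.0949). *Mthfd1* was high in Het replicate 1 at day 14 (0.109), the shallowest library, with the other 3 at 0.0868 to 0.0876. *Phgdh* was low in Het replicate 1 at day 21 (0.11) and high in WT replicate 2 at day 14 (0.127). In the last case the whole range of the group was 0.119 to 0.127. Of the 7 values, 6 belong to replicate 1.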

How the results depend on the processing

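The 9 genes kept a positive Het difference at days 14 and 21 under every scaling, filter, test and left-out replicate run, except that *Shmt1* was at −0.14 on the log2 scale within replicate 1 alone, where there is no test. The number of called members went from 5 to 8 with the total count, and the calls over all genes from 3202 to 5057 with replicate 1 against the others as a covariate. With the replicate block the members called were 6, as *Aldh1l2* was added.

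At day 14 the members called went from 2 to 5 with TMM factors, DESeq2 size factors, DESeq2's Wald test, the replicate block and the covariate, to 6 with the total count and to 1 with no filter. The calls over all genes went there from 572 to 1152 (TMM), 1309 (size factors), 1488 (total count), 1911 (Wald), 362 (no filter), 1326 (replicate block) and 2020 (covariate). At day 21 the members called went from 0 to 1 with TMM and with size factors, and to 4 with the total count, the Wald test, the replicate block and the covariate. Over all genes, 131 calls became 346, 334, 432, 896, 83, 502 and 878, in the order given for day 14. At day 8 the calls over all genes went from 0 to 431 (Wald), 285 (replicate block) and 704 (covariate). *Shmt2*, at −0.005, had 0.076 with TMM and with size factors and 0.091 with the total count. For the difference between the later days and day 8, 35 calls became 91, 67 and 73, in the same order as at day 8. For that between days 21 and 14 the Wald test called 1 gene and edgeR 0.

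Against day 8 in WT, *Psat1* (0.065) had −0.056 with TMM, −0.053 with size factors and −0.235 with the total count. With the total count *Psph* had −0.154 and *Mthfd1l* −0.127 in WT, and *Mthfd1l* −0.011 in Het. From day 14 to 21 in WT the members called went from 2 to 1 (TMM, size factors, no filter), 4 (Wald, replicate block) and 5 (covariate), and the 1609 calls to 2511 (Wald) and 2555 (covariate). In Het the members called went from 1 to 2 with the total count, the Wald test, the replicate block and the covariate, and the 907 calls to 1923 (Wald), 558 (no filter) and 1766 (covariate). Apart from the counts given here and the calls named in the report, the replicate block changed no other call.

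Left-out replicates gave these ranges. Members called were 0 to 7 at days 14 and 21, 0 to 1 at day 8, 0 to 6 at day 14, 0 to 6 at day 21, 0 to 4 for the difference from day 8, 3 to 8 against day 8 in WT, 0 to 5 for day 21 against 14 in WT and 0 to 6 in Het. Calls over all genes were 139 to 7582, 0 to 3432, 5 to 5174, 2 to 4316 and 0 to 928 in the same order of the first 5, then 0 to 3149 for day 21 against 14 in WT and 8 to 3234 in Het. The highest count came in each case without replicate 1. With left-out replicates or single libraries *Shmt2* at day 8 ran from −0.053 to 0.024, *Phgdh* against day 8 in WT from −0.316 to 0.158, *Psat1* there from −0.021 to 0.194, and at day 14 *Shmt1* from −0.014 to 0.14 and *Mthfd1* from −0.027 to 0.095. The difference of *Psph* between days 21 and 14 ran from −0.321 to 0.091. The cause of these moves was not tested.

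The limits are those of the design. Wells of pooled cells stand for replicates, so the p-values do not cover differences between animals or litters. The labels do not tie replicate numbers to experiments, so what sets replicate 1 apart cannot be told from them. Its libraries are also the shallowest. The lowest member count in a library was 71, for *Shmt1*, at which counting error is not negligible beside the spread. The housekeeping scale fixes what counts as no change over time.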
